A study of Bos taurus with 43 samples.

Results

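The antigen presentation genes B2M, CD74, BOLA-DRA and BOLA-DRB3 were followed through 43 microarrays of bovine skeletal muscle. Their probes were found by the gene name, the description or the RefSeq symbol that the array gives, and each gene had 1 probe, so that 4 of the 21475 gene probes on the array, which stand for 19788 gene names, are described here. All 4 probes were among the 16354 that passed the filter on dim probes, and all 4 were well above background on all 43 arrays.

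Cells show peptides to T cells on molecules of the major histocompatibility complex (MHC), which in cattle is called BoLA. Class I molecules, present on most nucleated cells, consist of a heavy chain and of beta-2-microglobulin, the invariant light chain encoded by B2M. Class II molecules are pairs of an alpha and a beta chain, made mainly by macrophages, dendritic cells and B cells, and also by other cells after exposure to interferon-gamma. BOLA-DRA encodes the DR alpha chain and BOLA-DRB3 the main expressed DR beta chain of cattle, whereas CD74 encodes the invariant chain that escorts newly made class II molecules to the endosome.

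The arrays measured total RNA from the biceps brachii, a muscle of the front limb, in male cattle, with 1 array per animal. Of the 18 animals labelled as negative controls, 5 were Limousine and Charolais cross-breeds (K7, K8, K10, K11 and K12) and 13 were Holsteins (named with C). The labels give no breed, which was taken from the methods. Both sets came from earlier controlled experiments, and the Holsteins were as old as the cross-breeds or younger. The 25 other animals were commercial beef cattle, mostly Charolais, Limousine and their crosses, sampled in several batches at the slaughterhouse, vaccinated against respiratory disease and healthy at inspection. Of these, 4 were positive for corticosteroid treatment by thymus histology and by dexamethasone, a synthetic glucocorticoid, in urine. They are P21, P54, P56 and P57, which the labels name S21, S54, S56 and S57 and call suspected. For the other 21 animals the labels give the treatment as unknown, and the study detected no dexamethasone in their urine. No positive animal was a treated control of a known breed, dose or duration, so that treatment, breed and husbandry cannot be told apart. The study divided the arrays into 4 sets from these same data. Set 1 held the Holsteins, set 2 the cross-breeds with 5 unknown animals, set 3 the positive animals with 9 unknown animals and set 4 the other 7 unknown animals. Values by set are therefore a description only.

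Myoglobin (MB), a defining gene of muscle fibres, averaged 17.66 in the cross-breeds, 18.38 in the Holsteins, 18.49 in the positive animals and 17.87 in the unknown animals, as log2 signal. The share of probes well above background was 62.3 to 73.2% in the Holsteins and 62.9 to 73.6% in the cross-breeds. It reached 74.9 to 89.4% in the positive animals and ranged from 40.2 to 97.3% in the unknown animals. The Holstein and cross-breed arrays shared no slide, no scan day and no scanner, so that breed and batch cannot be told apart in any comparison between them. The positive and unknown arrays likewise shared none of these with the cross-breeds. With the Holsteins they shared the scanner, but no slide and no scan day. Batch can therefore not be told apart in the comparisons with either control group. Only 2 slides held arrays of different groups: the 4 positive animals lay there beside animals 50, 78, 79 and 81 of the unknown group. All values below are normalized log2 signals or differences between them. A difference was called when its Benjamini-Hochberg adjusted p in limma was under 0.05 and it reached 2-fold. The p-values measure the spread between animals of a group. In a piece of muscle, fewer cells of a type and less RNA per cell cannot be told apart.

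B2M, the class I light chain, was highest on average in the Holsteins at 15.78 ± 0.33 (SD, n = 13), followed by the positive animals at 15.63 ± 0.36 (SD, n = 4), the cross-breeds at 15.59 ± 0.24 (SD, n = 5) and the unknown animals at 15.17 ± 0.60 (SD, n = 21). In the cross-breeds the B2M signal was 15.90 in K7, 15.76 in K8, 15.47 in K10, 15.57 in K11 and 15.28 in K12. The positive animals gave 15.67 in P21, 15.74 in P54, 15.97 in P56 and 15.12 in P57. The Holsteins ran from 15.15 through a median of 15.84 to 16.27, and the unknown animals from 14.35 through 14.91 to 16.38. The Holsteins, positive animals and cross-breeds, neighbours in this order, differed by less than their SDs. All groups overlapped, and the unknown animals held both the lowest and the highest B2M value of the series.

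CD74, the invariant chain, was highest on average in the cross-breeds at 10.34 ± 0.45 (SD, n = 5), followed by the unknown animals at 10.17 ± 0.85 (SD, n = 21), the positive animals at 9.55 ± 0.26 (SD, n = 4) and the Holsteins at 9.53 ± 0.81 (SD, n = 13). The cross-breed values were 10.61 in K7, 10.67 in K8, 10.40 in K10, 10.46 in K11 and 9.57 in K12, and the positive values were 9.76 in P21, 9.64 in P54, 9.16 in P56 and 9.63 in P57. Neighbours in this order differed by less than the larger of their SDs. K12 alone among the cross-breeds lay inside the range of the positive animals, below P21, P54 and P57. The Holsteins spread from 8.53 (C17) through a median of 9.45 to 11.48 (C20), and the unknown animals from 8.31 (animal 76) through 10.08 to 11.46 (animal 51).

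For the alpha chain gene BOLA-DRA the cross-breeds averaged 12.95 ± 0.47 (SD, n = 5) and the unknown animals 12.85 ± 0.73 (SD, n = 21), and the Holsteins (12.02 ± 0.64, SD, n = 13) and the positive animals (11.999 ± 0.54, SD, n = 4) were lower. By animal, the cross-breeds gave 13.14 in K7, 13.54 in K8, 12.68 in K10, 13.10 in K11 and 12.32 in K12, while the positive animals gave 12.29 in P21, 12.51 in P54, 11.92 in P56 and 11.28 in P57. Only K12 fell below the highest positive animal. The gap in the order lay between the unknown animals and the Holsteins, while the cross-breeds and unknown animals, and the Holsteins and positive animals, differed by less than their SDs. The Holstein values ran from 11.21 (C44) through a median of 11.79 to 13.43 (C20), and those of the unknown animals from 11.06 (animal 265) through 12.71 to 14.20 (animal 78).

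BOLA-DRB3 differed less between groups. The unknown animals averaged 12.52 ± 0.80 (SD, n = 21), the cross-breeds 12.28 ± 0.42 (SD, n = 5), the Holsteins 12.17 ± 0.63 (SD, n = 13) and the positive animals 12.10 ± 0.40 (SD, n = 4). The cross-breeds gave 12.43 in K7, 12.26 in K8, 12.38 in K10, 12.73 in K11 and 11.59 in K12, and the positive animals 11.85 in P21, 12.64 in P54, 12.16 in P56 and 11.73 in P57. Holstein values lay between 11.36 and 13.36 (C18) around a median of 12.13, and unknown values between 10.20 (animal 265) and 13.49 (animal 81) around 12.49. Neighbours in this order differed by less than their SDs, and all groups overlapped.

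**Figure D1:**
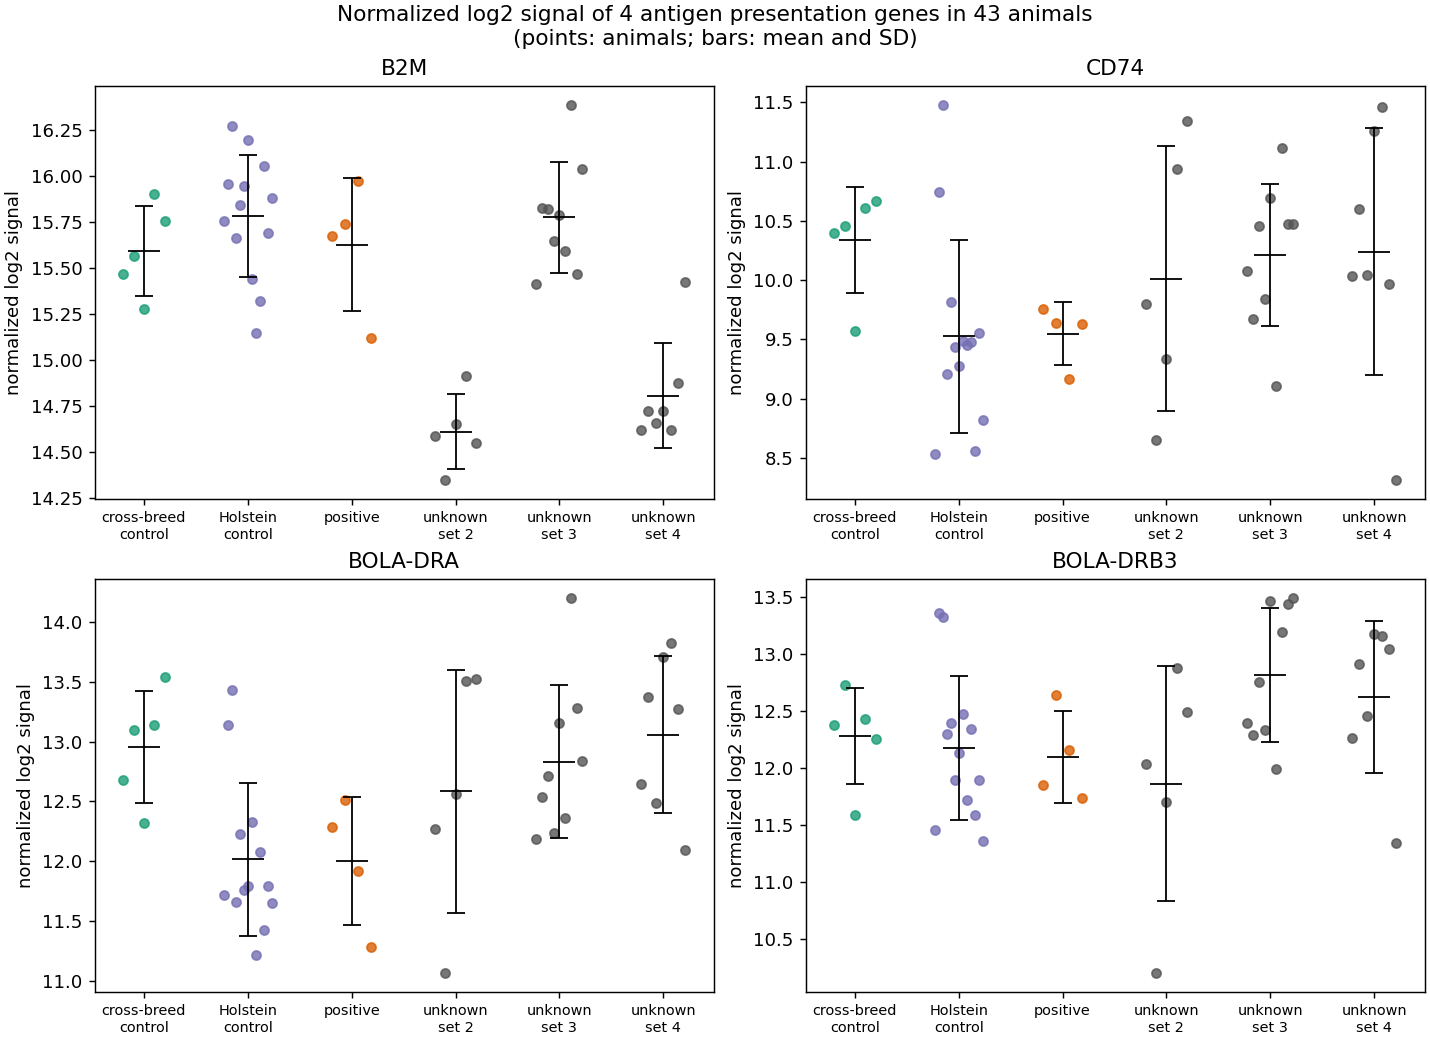
Normalized log2 signal of B2M, CD74, BOLA-DRA and BOLA-DRB3 (vertical axes) in each animal, by group, with the unknown animals divided by the sets of the study; points are animals and bars give the mean and SD. BOLA-DRA averaged 12.95 in the cross-breeds against 12.02 in the Holsteins, and B2M was low in the unknown animals of sets 2 and 4.

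Over all 43 arrays the SD of the log2 signal was 0.543 for B2M, 0.822 for CD74, 0.770 for BOLA-DRA and 0.690 for BOLA-DRB3, against a median of 0.624 over all probes tested. The SD between the spots of a probe on the same array was 0.0556 for BOLA-DRA and 0.107 for B2M, with CD74 and BOLA-DRB3 in between, so that most of the spread lay between arrays. For B2M, 39.6% of the tested probes varied less, and for CD74 69.6%.

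The comparison of the breeds asked which of the 4 genes differed between untreated Holsteins and untreated cross-breeds. BOLA-DRA was lower in the Holsteins by 1.92-fold, a log2 difference of -0.94 (SE 0.30, 95% confidence interval -1.57 to -0.30, limma adjusted p = 0.0162). CD74 gave a log2 difference of -0.81 (SE 0.37, interval -1.59 to -0.04, limma adjusted p = 0.0753). For BOLA-DRB3 it was -0.10 (SE 0.29, interval -0.72 to 0.51, limma adjusted p = 0.792), and its sign turned with loess on every pair of arrays and without K11. B2M gave 0.19 (SE 0.17, interval -0.16 to 0.54, limma adjusted p = 0.364), with a sign that turned under quantile normalization and under loess on every pair of arrays, whereas 75th percentile scaling gave 0.50 (limma adjusted p = 0.044).

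None of the 4 genes was called in this comparison, in which 20.6% of all tested probes were, and 1 of 4 (BOLA-DRA, lower) had an adjusted p under 0.05, against 48.3% of all tested probes, of which 24.4% were lower and 23.9% higher. The median difference over the 4 genes was -0.46, and that over all probes 0.01. Across 10 other ways of processing or modelling the same arrays the BOLA-DRA difference stayed between -0.94 and -0.84, with limma adjusted p from 0.0125 to 0.0298. It depended on single cross-breeds: without K8 it was -0.79 (limma adjusted p = 0.0582), and without K12, the lowest cross-breed, it was -1.10 and passed 2-fold. CD74 likewise gave -1.01 without K12 (limma adjusted p = 0.0486).

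The comparison of positive animals with the cross-breeds used the same control arrays. CD74 was lower in the positive animals by a log2 difference of -0.79 (SE 0.24, interval -1.32 to -0.27, limma adjusted p = 0.0176) and BOLA-DRA by -0.96 (SE 0.30, interval -1.61 to -0.30, limma adjusted p = 0.0208). BOLA-DRB3 gave -0.18 (interval -0.75 to 0.38, limma adjusted p = 0.577) and B2M 0.03 (interval -0.41 to 0.48, limma adjusted p = 0.903). None of the 4 genes was called, against 28.1% of all tested probes, and 2 of 4, both lower, had an adjusted p under 0.05, against 51.7% (26.2% lower and 25.5% higher). Neither difference kept its side of the threshold in every setting. With all 43 arrays in a common fit the limma adjusted p was 0.239 for CD74 and 0.0917 for BOLA-DRA, and with scan day as a random block it was 0.0513 and 0.0654. Loess on every pair of arrays gave -1.41 for CD74, which was then called, and -0.56 for BOLA-DRA. Without P57 the BOLA-DRA difference was -0.72 (limma adjusted p = 0.0606), and without P56 its adjusted p was 0.051.

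Positive animals and Holsteins had nearly equal means. The log2 difference, positive minus Holstein, was 0.02 for CD74 (interval -0.82 to 0.86, limma adjusted p = 0.969), -0.02 for BOLA-DRA (interval -0.73 to 0.69, limma adjusted p = 0.974), -0.08 for BOLA-DRB3 (interval -0.76 to 0.60, limma adjusted p = 0.871) and -0.16 for B2M (interval -0.56 to 0.25, limma adjusted p = 0.556). No gene of the 4 was called, where 17.8% of all tested probes were (8.4% higher and 9.4% lower), and none had an adjusted p under 0.05, against 36.4%. The groups did not overlap in 16.4% of all probes, but overlapped for each of the 4 genes. The intervals leave room for a change of more than 1.5-fold in either direction for the 3 class II genes. The sign of each of the 4 differences turned under at least 1 other scaling or without 1 animal.

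Unknown animals had higher BOLA-DRA than the Holsteins, by a log2 difference of 0.83 (SE 0.24, interval 0.34 to 1.32, limma adjusted p = 0.00728), and lower B2M, by -0.61 (SE 0.18, interval -0.97 to -0.24, limma adjusted p = 0.0088). The B2M difference was -1.12 with the arrays of scan days 4 and 5 alone and -0.04 with those of days 6 to 9. CD74 gave 0.65 (interval 0.06 to 1.23, limma adjusted p = 0.0754) and BOLA-DRB3 0.35 (interval -0.17 to 0.87, limma adjusted p = 0.288). None of the 4 was called, against 11.1% of all tested probes (3.43% higher and 7.66% lower). Adjusted p was under 0.05 for 2 of 4, 1 in each direction, against 36.8% of all probes (17.7% higher and 19.1% lower). With scan day as a random block the BOLA-DRA difference was 0.77 (limma adjusted p = 0.262) and the B2M difference -0.52 (limma adjusted p = 0.133). With slide as the block they were 0.82 (0.0937) and -0.52 (0.0618), in the same order of log2 difference and limma adjusted p. Against the cross-breeds the unknown animals gave -0.42 for B2M (limma adjusted p = 0.284), -0.17 for CD74 (0.791), -0.11 for BOLA-DRA (0.850) and 0.25 for BOLA-DRB3 (0.662). None of these was called, against 10.4% of all tested probes (5.24% higher and 5.19% lower), and none had an adjusted p under 0.05, against 22.1%. All 4 genes overlapped between these groups, which did not overlap in 4.21% of the probes.

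On the 2 slides that held positive and unknown animals together, the 3 class II genes were lower in the positive animals without overlap, but did not pass the test. The groups did not overlap in 6.63% of all probes. Among the unknown animals here, animal 79 had the lowest share of probes well above background of the series (40.2%) and animal 50 the highest (97.3%). CD74 was 9.76, 9.64, 9.16 and 9.63 in P21, P54, P56 and P57, and 10.46, 11.11, 10.47 and 10.48 in animals 50, 78, 79 and 81. The log2 difference with slide as a block was -1.08 (SE 0.19, interval -1.51 to -0.65, limma adjusted p = 0.142). BOLA-DRA was 12.71, 14.20, 13.28 and 12.84 in the same 4 unknown animals, and its difference was -1.26 (SE 0.24, interval -1.81 to -0.71, limma adjusted p = 0.167). BOLA-DRB3 was 12.75, 13.19, 13.44 and 13.49 in them, with a difference of -1.12 (SE 0.24, interval -1.69 to -0.56, limma adjusted p = 0.191). B2M overlapped, with a difference of -0.30 (SE 0.26, interval -0.90 to 0.30, limma adjusted p = 0.671).

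Across the whole array limma called 0 of the 16354 probes in this comparison of 4 animals against 4, while 1872 probes (11.4%) had an unadjusted p under 0.05. The markers shared by all leukocytes lay below 0 together with the class II genes: 8 of 8 were lower in the positive animals, with a median log2 difference of -1.24. The corresponding counts were 14 of 14 macrophage markers (median -1.29), 11 of 12 T and NK cell markers (-0.86), 5 of 5 dendritic cell markers (-0.82) and 2 of 6 B cell markers (0.07), with 0 called in each list. The median over all probes was 0.02. Of the genes of class I peptide supply and loading 14 of 15 were lower (median -0.25), and of the class I genes 6 of 7 (-0.43). Lower too were 7 of 10 endothelial markers (-0.10), 7 of 14 skeletal muscle markers (-0.0046) and 7 of 19 interferon response genes (0.30). Animal 78, 1 of the 4 unknown animals here, ranked first of all 43 in the summed macrophage, dendritic cell, B cell and pan-leukocyte markers. The part of these cell types in the result was not tested.

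**Figure D2:**
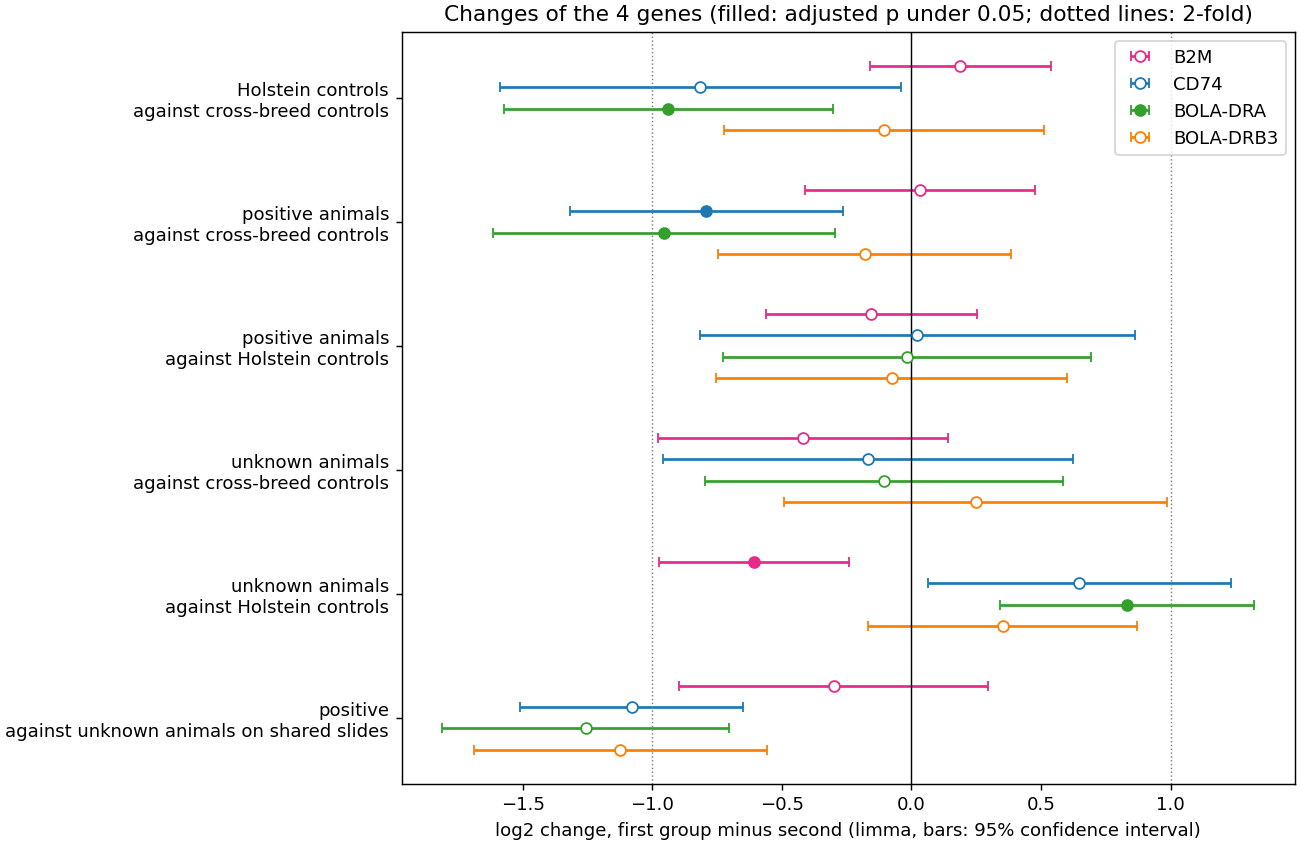
Log2 difference of the 4 genes in each of the 6 comparisons (horizontal axis, first group minus second), with bars for the 95% confidence interval from limma, filled points for an adjusted p under 0.05 and dotted lines at 2-fold. The differences of BOLA-DRA are -0.94 for Holsteins minus cross-breeds, -0.96 for positive animals minus cross-breeds and 0.83 for unknown animals minus Holsteins.

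The 3 class II genes varied together from animal to animal. Among the 13 Holsteins, Pearson's r was 0.886 between CD74 and BOLA-DRA (Spearman's rho 0.791, permutation p = 0.00051, adjusted 0.00102), 0.906 between CD74 and BOLA-DRB3 (rho 0.835, permutation p = 0.00014, adjusted 0.000336) and 0.913 between BOLA-DRA and BOLA-DRB3 (rho 0.879, permutation p = 0.0001, adjusted 0.0003). The p-values were adjusted over the 12 pairs examined in the 2 groups. Without the 2 animals farthest from the median the r values were 0.503, 0.744 and 0.721 in the same order, so that part of the relation rested on C18 and C20. C18 had 10.74 for CD74, 13.14 for BOLA-DRA and 13.36 for BOLA-DRB3, and C20 had 11.48, 13.43 and 13.32.

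Among the 21 unknown animals the r values of these pairs were 0.861, 0.806 and 0.819, each with a permutation p of 1e-05, the smallest that the permutations can give, and an adjusted p of 4e-05. They were 0.839, 0.702 and 0.722 without the 2 farthest animals. Within the 11 unknown animals scanned on days 4 and 5 the values were 0.919, 0.832 and 0.935, and within the 10 scanned on days 6 to 9 they were 0.774, 0.913 and 0.734. In the Holsteins the r of B2M was 0.272 with CD74, 0.401 with BOLA-DRA and 0.249 with BOLA-DRB3 (permutation p adjusted to 0.491, 0.26 and 0.494).

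Over all 21 unknown animals the r of B2M was 0.035 with CD74, 0.136 with BOLA-DRA and 0.378 with BOLA-DRB3 (permutation p adjusted to 0.878, 0.609 and 0.153). In these animals B2M fell into separate ranges by scan day, so that its r was also taken within the days. This is a description with no test, because its values drew the division. On days 4 and 5 the r of B2M was 0.418 with CD74, 0.664 with BOLA-DRA and 0.764 with BOLA-DRB3 and rho was 0.182, 0.309 and 0.545. On days 6 to 9 it was 0.630, 0.743 and 0.517 in the same order and rho was 0.552, 0.636 and 0.442. Without the 2 animals farthest from the median the r values were -0.188, 0.221 and 0.496 on days 4 and 5. On days 6 to 9 they were 0.414, 0.333 and 0.325. With 75th percentile scaling the 3 values were -0.50, -0.23 and -0.0403 on days 4 and 5. On days 6 to 9 this scaling gave 0.43, 0.50 and 0.40. All 4 probes of an animal were read from the same array, so that the pairs share its RNA, label and scan.

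Counting the class II genes above their median over 43 arrays shows the same pattern by animal. In the Holsteins, 9 of 13 animals had 0 of the 3 genes above it and 2 (C18 and C20) had all 3. Among the cross-breeds 3 of 5 had all 3 and K12 had 0, and 3 of the 4 positive animals had 0. The unknown animals were mixed, 11 of 21 with all 3 genes above the median and 4 with 0.

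The class II genes were also set against each other within each array. The log2 signal of BOLA-DRA minus that of BOLA-DRB3 averaged 0.68 ± 0.39 (SD, n = 5, range 0.30 to 1.28) in the cross-breeds. In the Holsteins this difference averaged -0.16 ± 0.27 (SD, n = 13, range -0.64 to 0.28), with the lowest cross-breed just above the highest Holstein. Single probes did not overlap between these groups in 16.2% of cases, and no such share was taken over pairs of probes. Breed and batch cannot be told apart here. The positive animals averaged -0.10 ± 0.38 (SD, n = 4) and the unknown animals 0.32 ± 0.46 (SD, n = 21), with means of 0.72, 0.02 and 0.44 in their sets 2, 3 and 4. The levels of different probes cannot be compared with each other, so that only the shift between groups can be read, and it was not tested. Each gene was read by 1 probe, and whether alleles of the animals differ at these probes was not tested either. CD74 minus BOLA-DRB3 averaged -1.94 in the cross-breeds, -2.65 in the Holsteins, -2.55 in the positive animals and -2.35 in the unknown animals. CD74 minus BOLA-DRA had means of -2.61 in the cross-breeds, -2.49 in the Holsteins, -2.45 in the positive animals and -2.67 in the unknown animals.

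**Figure D3:**
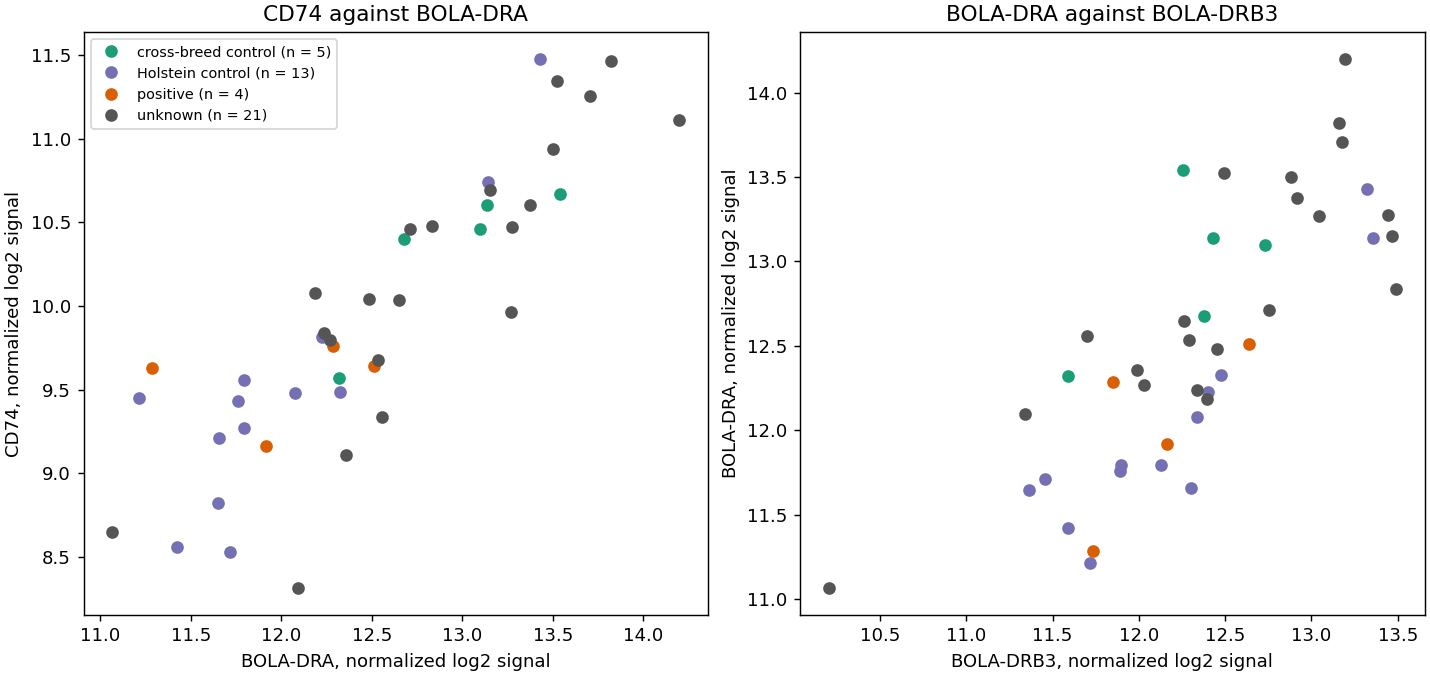
Normalized log2 signal of CD74 against BOLA-DRA (left) and of BOLA-DRA against BOLA-DRB3 (right), 1 point per animal and coloured by group. The genes vary together (r = 0.886 and 0.913 in the 13 Holsteins), and in the right panel the cross-breeds lie above the Holsteins of like BOLA-DRB3 signal.

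Of the 16353 other probes, those most like each gene were sought by Pearson's r over the 43 arrays after each group was centred on its mean. For CD74 they were BOLA-DRA (r = 0.846), BOLA-DMB (0.828), BOLA-DRB3 (0.817), BOLA-DMA (0.758) and the chemokine receptor gene CXCR6 (0.754). For BOLA-DRA they were BOLA-DMB (0.887), CYTH4 (0.854), CD74 (0.846), PLD4 (0.839) and BOLA-DRB3 (0.829). BOLA-DRB3 was most like BOLA-DRA (0.829), CD74 (0.817), BOLA-DMB (0.797), IRF8, a transcription factor of myeloid and B cells (0.794), and BOLA-DMA (0.770). BOLA-DMA and BOLA-DMB encode the chains of the molecule that exchanges the invariant chain fragment for peptide.

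B2M had other neighbours: the ribosomal protein gene RPS3A (0.883), an unidentified transcript (0.876), TMSB10, which binds actin monomers (0.871), PSMB10, a subunit of the immunoproteasome (0.858), and the ribosomal protein gene RPL17 (0.857). With CD74, BOLA-DRA and BOLA-DRB3 its r was 0.099, 0.239 and 0.363. These 43 points share slides and scan days, and the days were not centred, so that the values are descriptions and the difference of B2M between scan days given next entered its likeness to other probes.

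B2M separated the unknown animals by the day on which their arrays were scanned. The 11 arrays of scan days 4 and 5 gave 14.66 ± 0.15 (SD; 14.35 to 14.91) and the 10 arrays of days 6 to 9 gave 15.74 ± 0.30 (SD; 15.41 to 16.38), a log2 difference of -1.08 without overlap. Of all tested probes, 11.7% did not overlap between these days. The division was drawn after the values were seen. The arrays stayed apart in each of 7 versions of the values, with differences from -1.40 to -0.82, and a difference as large was found for 22.7% of all tested probes (5.57 to 41.9% over the 7 versions). CD74, BOLA-DRA and BOLA-DRB3 overlapped between these days, with differences of 0.29, 0.17 and -0.28. The arrays of days 6 to 9 included the 5 animals of low spike-in signal, 29, 39, 52, 61 and 76. Their mean normalized log2 spike-in signal was 7.75 to 8.41, against at least 11.33 on every other array. Its part in the difference of B2M was not tested.

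All unknown animals of set 2 and all of set 4 except animal 76 had been scanned on days 4 and 5, so that scan day and the sets of the study can hardly be told apart. Animal 76 of set 4, scanned on day 7, had a B2M signal of 15.42, and the other 6 animals of set 4 had 14.62 to 14.87. By set, B2M was 14.61 ± 0.20 (SD, n = 5) in set 2, 15.77 ± 0.30 (SD, n = 9) in set 3 and 14.81 ± 0.29 (SD, n = 7) in set 4. The positive animals were scanned on day 6. The comparison of unknown animals with Holsteins was repeated within each division. For BOLA-DRA the log2 difference was 0.91 (limma adjusted p = 0.00938) with the arrays of days 4 and 5 alone and 0.74 (0.0268) with those of days 6 to 9 alone. For B2M, whose values drew the division, the differences are a description with no test. They were -1.12 with days 4 and 5 and -0.04 with days 6 to 9 against the Holsteins, and -0.93 and 0.15 against the cross-breeds.

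**Figure D4:**
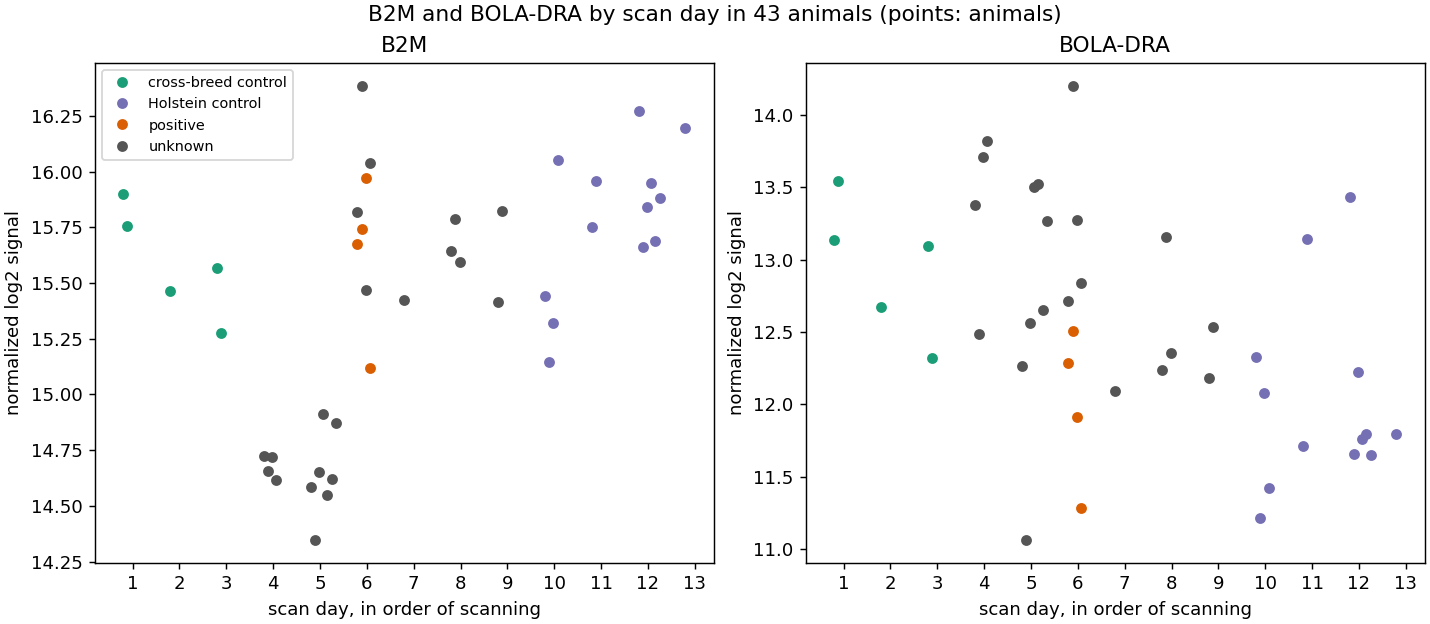
Normalized log2 signal of B2M (left) and BOLA-DRA (right) by scan day, numbered from 1 in the order of scanning, with 1 point per animal and coloured by group. B2M of the unknown animals lies between 14.35 and 14.91 on days 4 and 5 and between 15.41 and 16.38 on days 6 to 9, and BOLA-DRA overlaps between these days.

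By set of the study, CD74 was 10.01 ± 1.12 (SD, n = 5), 10.21 ± 0.60 (SD, n = 9) and 10.24 ± 1.04 (SD, n = 7) in the unknown animals of sets 2, 3 and 4. BOLA-DRA was 12.58 ± 1.02, 12.83 ± 0.64 and 13.06 ± 0.66, and BOLA-DRB3 was 11.86 ± 1.03, 12.82 ± 0.59 and 12.62 ± 0.67 in the same sets (mean ± SD of the log2 signal). The 5 unknown animals that the study grouped with the cross-breeds thus overlapped them in each class II gene. Set 2 included animal 265, which had the lowest BOLA-DRA and BOLA-DRB3 values of the series and 8.65 for CD74.

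Several other class II genes on the array were lower in the Holsteins than in the cross-breeds. Of 17 such genes listed, 13 had a probe and 10 were tested; 4 were called lower and 0 higher, where 9.69% of all probes were called lower and 10.9% higher. Their median log2 difference was -1.10, and 8 of 10 were below 0. The share of higher among all called probes was 52.9%, and 35.4% with 75th percentile scaling. BOLA-DMB fell from 12.81 ± 0.47 in the cross-breeds to 11.03 ± 0.73 in the Holsteins (log2 difference -1.78, limma adjusted p = 0.000347) and BOLA-DMA from 11.34 ± 0.29 to 9.83 ± 0.50, without overlap (-1.51, 4.38e-05). The groups did not overlap in 16.2% of all tested probes. BOLA-DRB2, a DR beta locus, was lower by -1.85 (0.00369) and BOLA-DQA1, a DQ alpha chain gene, by -1.75 (0.0421), both well above background in only 9 and 10 of the 13 Holsteins. The BOLA-DRB2 call was lost in 1 of 14 other settings, and its difference ran from -2.25 to -0.62 over other ways of processing. The BOLA-DQA1 call was lost in 6 of 15 other settings. With normexp background correction, which left 13 of these genes in the test, 2 were called lower and the median was -0.13.

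Against the cross-breeds the positive animals also had 4 of 10 other class II genes lower and 0 higher, with a median log2 difference of -0.85, where 13.8% of all probes were called lower and 14.4% higher. The share of higher among the called probes was 51.0%, and between 33.5 and 69.1% with other scalings. BOLA-DMB (-1.69, limma adjusted p = 0.000464) and BOLA-DMA (-1.27, 0.00089) did not overlap between the groups, as was the case for 43.3% of all probes. BOLA-DQB1, a DQ beta chain gene, gave -4.95 (0.035). It was well above background in P21 and P56 and not in P54 and P57, and the call was lost in 9 of 19 other settings, among them those without P54 and without P57. BOLA-DQA1 gave -1.30 (0.0488), a call lost in 11 of 19 other settings. In the comparison of positive animals with Holsteins, BOLA-DRB2 was higher in the positive animals (1.93, limma adjusted p = 0.00355), a direction that turned to -0.29 with loess on every pair of arrays, and BOLA-DQB1 was lower (-4.26, 0.00964). The BOLA-DQB1 difference again included P54 and P57, not well above background. It ran from -4.61 to -2.28 over other ways of processing, and the call was lost in 2 of 14 other settings. The unknown animals had lower BOLA-DMB (-1.39, limma adjusted p = 0.00524) and BOLA-DMA (-1.17, 0.00253) than the cross-breeds, with 0 of 10 genes higher (5.24% of all probes were called higher and 5.19% lower), and 0 of 10 called in either direction against the Holsteins (3.43% higher and 7.66% lower). The BOLA-DMB and BOLA-DMA calls were lost with scan day as a random block.

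**Figure D5:**
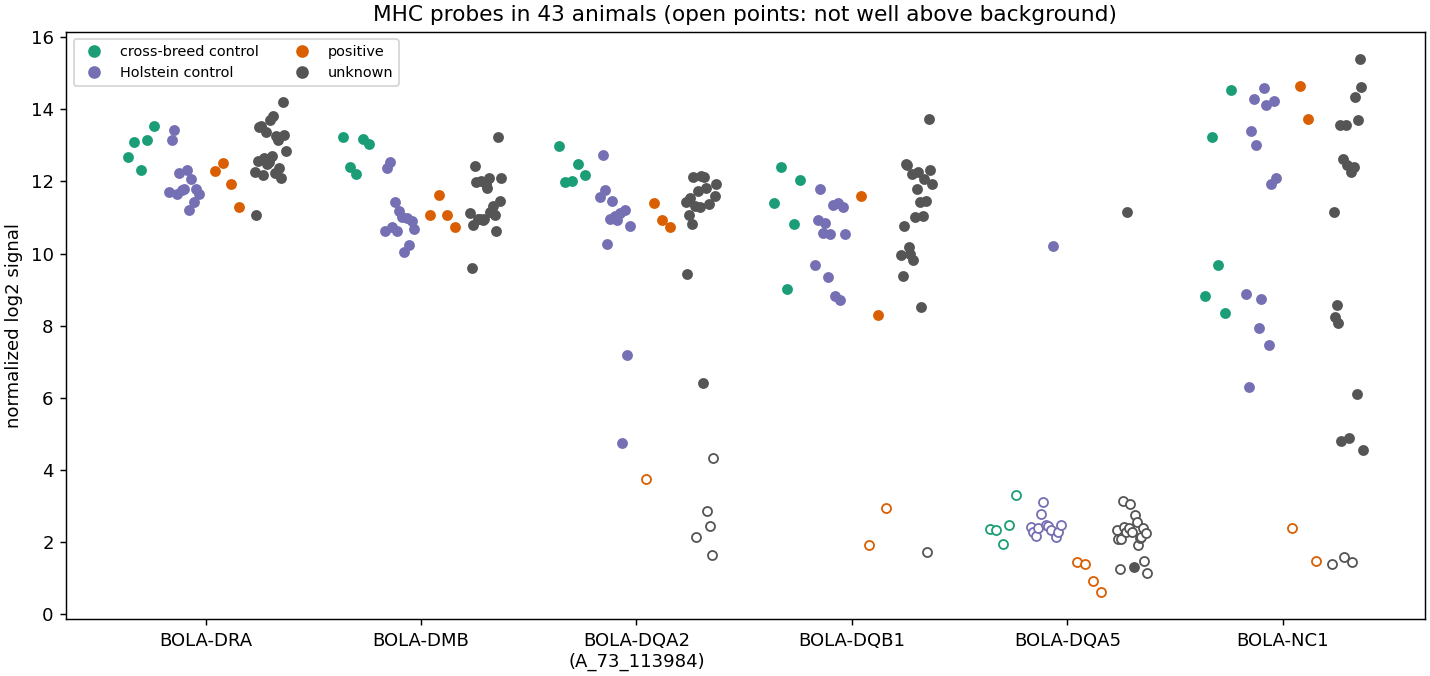
Normalized log2 signal (vertical axis) of BOLA-DRA beside 4 other class II genes and the class I gene BOLA-NC1 in 43 animals, coloured by group, with open points for signals not well above background. BOLA-DRA and BOLA-DMB form 1 range of values, whereas BOLA-DQB1 is at 2.94 or less in 3 animals and at least 8.30 in the others, and BOLA-DQA5 is high in 2 animals only (10.22 and 11.16).

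The transcription factors of the MHC genes included CIITA, the class II transactivator, and the RFX subunits that bind class II promoters. Of 10 tested, 3 were called lower and 1 higher in the Holsteins than in the cross-breeds, where 9.69% of all probes were called lower and 10.9% higher, with a median log2 difference of -0.43. CIITA averaged 12.66 (12.20 to 13.36) in the cross-breeds and 10.87 (9.94 to 12.25) in the Holsteins, a difference of -1.78 (limma adjusted p = 0.000124), so that the ranges met only between 12.20 and 12.25. RFXAP fell from 6.79 ± 0.41 to 4.50 ± 0.51 without overlap (-2.29, 1.2e-06), although it was well above background in only 8 of the 13 Holsteins. NFYA, a subunit of the CCAAT-binding factor, was higher by 1.03 (2.66e-05). It was close to 2-fold, and the call was lost in 6 of 15 other settings.

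In the positive animals the same factors against the cross-breeds gave 3 lower and 0 higher calls. Of all probes 13.8% were called lower and 14.4% higher. The 3 genes did not overlap between the groups, like 43.3% of all probes: CIITA at 10.27 ± 0.34 (-2.39, limma adjusted p = 4.63e-05), RFXAP (-2.26, 4.43e-05) and RFX5 (-1.37, 0.000503). The RFX5 call was lost in 2 of 19 other settings, among them loess on every pair of arrays, with differences from -1.74 to -0.43. The RFXAP call was lost in 1 of 19, with differences from -4.05 to -0.86. In the unknown animals CIITA averaged 10.97 ± 0.89 (-1.69, limma adjusted p = 0.00335) and RFXAP 5.45 ± 0.97 (-1.34, 0.0263, a call lost in 9 of 17 other settings) against the cross-breeds. None of the 10 factors was called against the Holsteins in the positive or in the unknown animals, where 17.8% and 11.1% of all probes were. Over the 43 arrays centred by group, CIITA had r of 0.54 with CD74, 0.58 with BOLA-DRA and 0.35 with BOLA-DRB3, and IRF1, an interferon-induced factor, had 0.62, 0.59 and 0.66 in the same order.

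Class I heavy chains and class I-like genes, listed as possible partners of B2M, gave 1 lower and 1 higher call of 7 tested in the Holsteins against the cross-breeds (9.69% and 10.9% of all probes), with a median log2 difference of -0.0034. The class I heavy chain probe named BOLA, the most abundant of the list, was lower (17.10 ± 0.37 in the cross-breeds, 16.04 ± 0.55 in the Holsteins; -1.06, limma adjusted p = 0.00289), a call lost with 75th percentile scaling (-0.67) and without K7 (-0.95). PROCR, the endothelial protein C receptor, which resembles class I but binds no B2M, was higher by 2.14 (5.47e-05). No gene of the list was called in the positive or the unknown animals against the cross-breeds, where 28.1% and 10.4% of all probes were. Against the Holsteins, CD1E was higher in the positive (1.38, limma adjusted p = 0.00228) and the unknown animals (1.81, 1.07e-06), and PROCR was lower (-1.98, 0.000145, and -1.30, 0.000328). Of all probes 8.4% were called higher and 9.4% lower in the positive animals, and 3.43% and 7.66% in the unknown animals.

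Genes of peptide supply and loading for class I were called lower in 5 and higher in 1 of 15 cases in the Holsteins against the cross-breeds (9.69% and 10.9% of all probes), with a median of -0.48. Tapasin (TAPBP) was lower by -1.20 (limma adjusted p = 0.000201) without overlap, the immunoproteasome subunit PSMB8 by -1.20 (0.0035) and the peptide transporter TAP2 by -1.06 (0.00204), whereas PSMB10 was higher by 1.07 (0.000169). The TAP2 and PSMB10 calls were each lost in 2 of 15 other settings. In the positive animals 1 of 15 was higher than in the cross-breeds (ERAP2, 1.09, limma adjusted p = 0.0418) and 1 lower (TAPBP, -1.09, 0.002), calls lost in 13 and 3 of 19 other settings. Of all probes 14.4% were called higher and 13.8% lower in this comparison. None of 15 was called in the positive animals against the Holsteins, where 17.8% of all probes were. A limma adjusted p under 0.05 below 2-fold was found for 2 of 15 (ERAP1 0.92, 0.0496, and PSME2 -0.39, 0.0167). It was under 0.05 for 36.4% of all probes. The unknown animals had 0 of 15 calls against the cross-breeds, where 10.4% of all probes were called. Against the Holsteins, where 3.43% of all probes were called higher and 7.66% lower, they had 2. These were PSMB10 (-1.22, limma adjusted p = 0.0035) and the trimming peptidase ERAP1 (1.01, 0.000867). These calls were lost in 3 and 6 of 13 other settings, and with the arrays of scan days 6 to 9 alone the PSMB10 difference was -0.08.

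Of 8 genes of class II processing in the endosome, the Holsteins had 2 higher and 1 lower than the cross-breeds (10.9% and 9.69% of all probes), with a median of 0.61. Cathepsin S (CTSS), which trims the invariant chain, was higher by 1.36 (limma adjusted p = 0.00218), cathepsin L (CTSL) by 1.18 (0.0112), with 1 of 5 cross-breeds well above background, and legumain (LGMN) was lower by -1.31 (5.21e-07) without overlap. The CTSL call was lost in 4 of 15 other settings, and its difference ran from 0.15 to 1.53 over 10 ways of processing. Legumain was also lower in the positive (-1.21, limma adjusted p = 0.000868) and the unknown animals (-1.11, 0.000357, a call lost in 3 of 18 other settings) than in the cross-breeds, and CTSS was higher in the unknown animals (1.54, 0.00304). Against the Holsteins the positive animals had lower CTSL (-1.85, limma adjusted p = 0.000952) and IFI30 (-1.48, 0.00525), where 8.4% of all probes were called higher and 9.4% lower. These calls were lost in 2 and 1 of 14 other settings, and this CTSL difference ran from -2.92 to -0.23. The unknown animals showed 0 of 8 calls against the Holsteins, where 11.1% of all probes were called.

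Genes of the interferon response, a list that holds induced genes beside the receptor chains IFNGR1 and IFNGR2 and the signalling kinases JAK1 and JAK2, were called lower in 10 and higher in 0 of 19 cases in the Holsteins, where 9.69% of all probes were called lower and 10.9% higher. The median log2 difference was -1.11, and of the receptor chains and kinases IFNGR2 was among the 10. ISG15, a ubiquitin-like protein, was lower by -2.91 (limma adjusted p = 0.00197), the chemokine gene CXCL10 by -2.08 (0.000803), and the guanylate-binding proteins GBP5 by -2.81 (0.042) and GBP1 by -1.79 (0.0102). GBP5 was well above background in only 3 of the 13 Holsteins and 4 of the 5 cross-breeds, so that the size of its difference is uncertain. That difference ran from -3.21 to -1.20 over other ways of processing. The GBP5 call was lost in 7 of 14 other settings, among them when any cross-breed but K10 was left out. The positive animals had 4 lower and 0 higher than the cross-breeds (13.8% and 14.4% of all probes; median -0.14). These were CXCL10, WARS and both chains of the interferon-gamma receptor, IFNGR1 (-1.04, limma adjusted p = 0.001, a call lost in 4 of 19 other settings) and IFNGR2 (-1.65, 7.5e-05). Against the Holsteins 3 were higher and 0 lower (8.4% and 9.4% of all probes; median 0.96), the kinase JAK2, GBP4 and IDO1. The GBP4 call was lost in 5 of 14 other settings, the IDO1 call in 8 of 14 and the JAK2 call in 1 of 14. The unknown animals had 1 lower than the cross-breeds (ISG15, -2.06, limma adjusted p = 0.014, a call lost in 3 of 18 other settings) and 4 higher than the Holsteins, where 3.43% of all probes were called higher. Their calls were lost in 4 of 13 other settings for CXCL10, 4 of 12 for IFI44, 6 of 13 for MX1 and 5 of 13 for IFNGR1.

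Markers of the cells that carry class II molecules were read beside these values. For the counts of Holsteins against cross-breeds, 10.9% of all probes were called higher and 9.69% lower. In the Holsteins against the cross-breeds 0 of 8 pan-leukocyte markers were called, with a median log2 difference of -0.12, and the summed log2 signal of the list was 12.46 against 12.35. LAPTM5, its most abundant gene, averaged 10.97 and 11.09, and PTPRC, which encodes CD45, 8.15 and 8.39. Macrophage and monocyte markers were called higher in 3 and lower in 0 of 14 cases (AIF1 1.76, CD163 1.63 and MRC1 1.30), with a median of 0.69 and a summed signal of 13.36 against 12.50, and 11 of 14 were not called. Their most abundant gene was C1QA. Dendritic cell markers gave 0 higher and 1 lower call of 5 (CCR7, lost in 3 of 14 other settings), B cell markers 1 higher and 0 lower of 6, T and NK cell markers 0 higher and 2 lower of 12 (PRF1 and NKG7) and endothelial markers 0 of 10.

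Skeletal muscle markers gave 2 higher and 4 lower calls of 14 (10.9% and 9.69% of all probes), with a summed signal of 20.54 in the Holsteins and 19.96 in the cross-breeds. The B cell genes MS4A1, CD79B and CR2 and the dendritic cell genes CLEC9A, XCR1, ITGAX and CD80 did not pass the filter on dim probes. The part of these cell types in the differences was not tested.

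In the positive animals against the cross-breeds, where 14.4% of all probes were called higher and 13.8% lower, 2 of 8 pan-leukocyte markers were lower (ITGB2 -1.40, and LCP1 -1.16, a call lost in 5 of 19 other settings) and 0 higher, with a median log2 difference of -0.56 and a summed log2 signal of 12.32 against 12.35. Macrophage markers gave 2 higher and 0 lower calls of 14 (MRC1 2.10, and FCER1G 1.02, which turned to -1.48 with loess on every pair of arrays), dendritic cell markers 0 higher and 2 lower of 5, B cell markers 2 higher and 0 lower of 6, and T and NK cell markers 1 higher and 3 lower of 12. Endothelial markers were higher in 6 and lower in 0 of 10 cases, with a median of 1.12. Skeletal muscle markers gave 3 higher and 5 lower calls of 14, with a median of -0.52. Against the Holsteins, where 8.4% of all probes were called higher and 9.4% lower, 0 of 8 pan-leukocyte markers were called, 3 of 14 macrophage markers were lower (CD163, and C1QA and C1QB, whose calls were lost in 5 and 4 of 14 other settings) and 4 of 10 endothelial markers higher. Dendritic cell markers were lower in 3 of 5 cases in this comparison (CD207 -2.09, FLT3 -1.23 and CD83 -1.45, the last a call lost in 7 of 14 other settings) and higher in 0, with a median of -1.23. With 75th percentile scaling 1 of them was lower and 1 higher, and with normexp background correction 0 of 9 were called. B cell markers gave 0 higher and 1 lower call of 6 (JCHAIN, lost in 4 of 14 other settings). T and NK cell markers gave 1 higher (CD3D) and 2 lower (CD2 and LCK) of 12. The CD2 call was lost in 8 of 13 other settings, the LCK call in 5 of 13 and the CD3D call in 2 of 13. Skeletal muscle markers gave 1 higher and 3 lower calls of 14. For the unknown animals 5.24% of all probes were called higher and 5.19% lower against the cross-breeds, and 3.43% and 7.66% against the Holsteins. Of 8 pan-leukocyte markers 0 were called against either control group, and of the 14 macrophage markers MRC1 was higher than in the cross-breeds (1.83). Endothelial markers were higher in 1 of 10 cases against the cross-breeds and in 3 of 10 against the Holsteins, and lower in 0. Skeletal muscle markers gave 0 higher and 3 lower calls of 14 against the cross-breeds, and 1 higher and 2 lower against the Holsteins. Their part in the results was not tested.

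Across animals, the class II genes were compared with the leukocyte markers. Over the 43 arrays centred by group, the median r of the 8 pan-leukocyte markers was 0.56 with CD74, 0.70 with BOLA-DRA (highest for ITGB2, 0.82) and 0.51 with BOLA-DRB3, against 0.18 with B2M. For the 14 macrophage markers it was 0.39, 0.52 and 0.35 with the 3 class II genes and for the 12 T and NK cell markers 0.39, 0.48 and 0.35. It was 0.17, 0.36 and 0.24 for the 5 dendritic cell markers and 0.0081, 0.12 and 0.092 for the 6 B cell markers, and no endothelial marker exceeded 0.46 with any of them. Animal 78 ranked first of 43 in the summed signal of the 4 genes and of the macrophage, dendritic cell, B cell and pan-leukocyte markers. Animal 265 ranked 43rd in the summed signal of the 4 genes and of the pan-leukocyte markers. B2M, the most abundant of the 4 genes with a mean of 15.45, weighs most in their sum. It was highest in animal 78 (16.38) and lowest in animal 265 (14.35), so that these ranks do not describe the class II genes alone. The Holsteins with high class II values, C18 and C20, ranked 4th and 6th for macrophage markers and 9th and 5th for pan-leukocyte markers, and K12 ranked 43rd and 41st. The Holstein C17 did not follow this order. It ranked 2nd for pan-leukocyte markers (summed log2 signal 14.34, the highest Holstein), 1st for T and NK cell markers and 16th for macrophage markers, but had the lowest CD74 signal of the Holsteins (8.53), with 11.71 for BOLA-DRA and 11.46 for BOLA-DRB3.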

How the data were processed

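Total RNA was hybridised to 1-colour Agilent bovine arrays, 1 animal per array. Per the file headers, the deposited intensity (gProcessedSignal) had been background-subtracted and detrended by Feature Extraction (versions 9.1.3.1 and 9.5.3.1 for the cross-breeds, 9.5.1.1 otherwise). The authors also deposited a table of normalized intensity values, used here as an alternative. Its normalization over all arrays was by the authors, and its scale was linear by comparison with the scanner values, whereas its centring stays unknown.

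The log2 of gProcessedSignal was normalized over all 43 arrays by cyclic loess on gene and spike-in spots (10 spike-in RNAs, limma 3.58.1, R 4.3.3), as in the study's methods. Control spots other than the spike-ins were left out, and the spots of a probe were averaged (21465 of 21475 probes had 2). Outlier spots entered the normalization but were left out of this mean, unless all spots of the probe were marked. Probes under a log2 signal of 4 on at least 30 of 43 arrays were removed, and 16354 were tested with lmFit and eBayes, with Benjamini-Hochberg adjustment over all of them. The study reported more transcripts left after a filter of like wording, so that its set differs from the one tested here. Each comparison used the arrays of its 2 groups. The test was checked on simulated data.

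Probes were named by RefSeq accession (3511), by RefSeq gene name or identifier (10273) or by the array's description (3553), and 4138 kept the array's name. CD74 carries the name MGC127643 on the array. A gene with several probes was counted by the probe of highest mean signal. From each list the most abundant gene was named, and per comparison up to 4 called genes with the largest change, as well as the 5 probes most like each gene. Not all of these are printed with their values, the lists being given by counts, and 1 called gene is not reported here. The 4 genes, the lists of related genes and the tests were chosen with earlier results of these data known. Alternatives covered normalization, background correction, the filter on dim probes, a common fit, slide and scan day as random blocks, the deposited table, and leaving out arrays. Depth does not apply to arrays, whose number limits the precision. All per-sample columns were mapped to samples, and genome coordinates were not used here.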

Additional observations from a re-analysis of the deposited data

Results flagged for a closer look

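In 164 groups of 4 to 10 animals, 11 held an animal that stood apart from the others by Dixon's ratio, where chance gives about 1 in 20. Of the 4 genes, this concerned CD74 in the cross-breed K12, at 9.57 against 10.40 to 10.67 in the other 4 cross-breeds. K12 also stood low in the marker genes CD83 (6.83), AIF1 (5.21), LCP1 (6.78) and MYF6 (13.3), and K10 in ENG (10.7), VWF (9.71) and GBP5 (2.44). In the positive animals ISG15 was high in P54, at 13.7 against 8.36 to 9.18 in the others, ENO3 was low in P54 (15.8) and TNNT3 was low in P21 (10.6). All are log2 signals, and no cause was tested.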

How the results depend on the processing

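Single results, each difference of a named gene or each correlation under 1 other planned setting, kept direction and side of the threshold in 1926 cases, fell below the threshold in 252, passed it in 9, turned in 34 and moved in 6. Under settings that had not been planned they kept both in 55 cases, fell below the threshold in 12, passed it in 1, turned in 1 and moved in 5. The cause was not tested. Called probes numbered 3361 for Holsteins against cross-breeds, and 1348 with normexp background correction. They numbered 4598 for positive animals against cross-breeds, and 1375 with normexp and 7590 without the filter on dim probes. For positive animals against Holsteins they were 2911, and 483 with normexp, 5638 with pairwise loess and 5843 without the filter. For unknown animals against cross-breeds they were 1706, and 805 with normexp and 3815 with scan days 6 to 9 alone. For unknown animals against Holsteins they were 1813, and 566 with normexp, 1079 in the deposited table, 1147 with slide and 565 with scan day as a random block, and 3547 with scan days 4 and 5 alone. The divisions by scan day were added after the data were seen. On the shared slides 0 probes were called, and 0 to 9 when 1 animal was left out, with 9 without animal 79.

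The median of all probes moved by over 0.1 log2 units, to the values given, with 75th percentile scaling (-0.11 for Holsteins and 0.11 for positive animals, each against cross-breeds, 0.19 for positive and 0.15 for unknown animals against Holsteins), with pairwise loess (-0.25 for positive and -0.0996 for unknown animals against cross-breeds, -0.26 for positive and -0.12 for unknown animals against Holsteins, and -0.11 on the shared slides) and with quantile normalization (-0.13 for positive animals against cross-breeds, 0.13 on the shared slides). The share of higher among called probes was 47.2% for positive animals against Holsteins, and 35.7% with quantile normalization, 82.8% with 75th percentile scaling, 28.5% with pairwise loess and 34.2% in the deposited table. It was 50.2% for unknown animals against cross-breeds, and 39.0% with pairwise loess. It was 30.9% for unknown animals against Holsteins, and 65.8% with 75th percentile scaling and 17.8% with pairwise loess. For positive animals against cross-breeds it was 51.0%, and 39.1% with quantile normalization, 69.1% with 75th percentile scaling and 33.5% with pairwise loess.

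These log2 differences turned sign. Holsteins against cross-breeds: B2M to -0.00439 (quantile) and -0.0504 (pairwise loess), and BOLA-DRB3 to 0.00256 (pairwise loess), with -0.28 to 0.0086 when 1 cross-breed was left out. Positive animals against cross-breeds: B2M to -0.276 (pairwise loess) and -0.00852 (deposited table), with -0.0818 to 0.203 when 1 animal was left out, BOLA-DRB3 to 0.274 and FCER1G to -1.48 (both pairwise loess). Positive animals against Holsteins: B2M to 0.03815 (quantile) and 0.0163 (normexp), BOLA-DRA to 0.00965 (75th percentile), 0.291 (pairwise loess) and 0.0127 (normexp), CD74 to -0.472 (pairwise loess) and -0.0542 (normexp), BOLA-DRB3 to 0.271 and BOLA-DRB2 to -0.29 (both pairwise loess). When 1 positive animal was left out these ran from -0.27 to 0.014 for B2M, -0.19 to 0.22 for BOLA-DRA, -0.0474 to 0.15 for CD74 and -0.26 to 0.0438 for BOLA-DRB3. Unknown animals against cross-breeds: BOLA-DRA to 0.109 (pairwise loess) and 0.0713 and CD74 to 0.0740 (both without the 5 animals of low spike-in signal), with -0.26 to 0.0409 for BOLA-DRA when 1 cross-breed was left out, and B2M to 0.147 with scan days 6 to 9 alone. In the Holsteins the correlation of B2M turned to -0.224 with CD74 and -0.126 with BOLA-DRB3 (75th percentile). No paired analysis was possible because the replicate numbers follow the order of the samples and pair no animals.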

Other observations

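Some class I and class II probes were very low in a few animals and high in most others, which the group means above do not show. The probe of the non-classical class I gene BOLA-NC1 had an SD of 4.33 over the 43 arrays, larger than that of 99.99% of the tested probes. Its log2 signal was at most 2.40 in animals 263, 52 and 38 and in P57 and P21, at least 4.55 in the others and 15.39 in animal 78. The DQ beta chain gene BOLA-DQB1 was 1.74 in animal 76, 1.92 in P54 and 2.94 in P57, and at least 8.30 in all other animals. For BOLA-DQA2, a DQ alpha chain gene, the better of 2 probes was at most 7.20 in 9 animals and at least 9.42 in the other 34. The 9 were 76, 37, 61, 58, P21, 78, C45, 50 and C47. Its other probe, which did not pass the filter, reached 7.66 in animal 49, 7.29 in 51, 7.10 in K12, 6.49 in 39 and 6.42 in 52, and stayed at or under 4.54 elsewhere.

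The DQ alpha gene BOLA-DQA5 was high in C45 (10.22) and in animal 37 (11.16) and at most 3.31 in the other 41 animals. The DQ beta probe named BOLA-DQB was high in the same 2 animals, at 8.93 and 10.67, and at most 5.28 elsewhere. In both animals the better BOLA-DQA2 probe was among the 9 low ones. The class I gene JSP.1 ranged from 5.56 in animal 265 to 11.25 in P21. These animals belong to different groups, scan days and sets, and whether alleles of the animals differ at the probes was not tested. They were chosen after their values were seen.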
